A study of Homo sapiens with 2 samples.

Results

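SOX9 peaks near autosome ends are the regions bound by the SOX9 antibody in VCaP chromatin whose centre lay in the first 5 Mb of a chromosome or within 5 Mb of its last peak. They were counted on 16 autosomes, namely chromosomes 1, 2, 3, 5, 6, 7, 9, 10, 11, 12, 14, 15, 16, 20, 21 and 22. Chromosomes 4, 8, 13, 17, 18 and 19 were not included. The rule gave 884 members out of 7547 SOX9 peaks in the whole list and out of 5540 on the 16 chromosomes. The rule uses position and no score or width, but it was set with earlier results of these data known. The comparison set was the other 4656 SOX9 peaks of the same chromosomes, called the rest here.

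VCaP is an established human prostate cancer line, positive for the TMPRSS2-ERG fusion, with high basal SOX9, and was cultured in DMEM with serum and fixed with formaldehyde. The SOX9 ChIP group was 1 library made with the Millipore antibody AB5535, and the input group was 1 library of sonicated VCaP chromatin taken before immunoprecipitation. Neither group received a treatment that the labels name. With 1 library per group there was no replicate error and no test, and peak names in the SOX9 list include the replicate number 2. All 95% intervals are exact and cover counting error over peaks only, and they treat neighbouring peaks as independent. Read depth is unknown, and peaks per Mb are not corrected for the number of copies of a chromosome.

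SOX9 is a transcription factor of the SOX family that binds DNA through an HMG box and bends it. In the prostate it is known from epithelial budding and basal cells, and the series links it to the WNT pathway in prostate cancer. The outermost bands of many human chromosomes are rich in genes and in G and C bases, whereas the short arms of the acrocentric chromosomes 14, 15, 21 and 22 carry ribosomal RNA gene arrays that reference builds leave largely unassembled. The terminal bands hold WNT pathway genes such as DVL1 on the short arm of chromosome 1 and AXIN1 on that of chromosome 16, and also NOTCH1 on the long arm of chromosome 9 and COL18A1, a collagen gene, on that of chromosome 21. Genes and DNA sequence under the peaks were not analysed here, so members are named by hg18 position.

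SOX9 peaks were more closely spaced near the ends than on the rest of the same chromosomes. The 32 windows of 5 Mb made up 7.30% of the length and held 15.96% of the peaks. This was 5.53 peaks per Mb (exact Poisson interval 5.17 to 5.90) against 2.29 on the rest (2.22 to 2.36), a ratio of 2.41 (conditional exact binomial interval 2.24 to 2.59). Peaks covered 0.298% of the terminal sequence and 0.126% of the rest. When peaks up to 12.5 kb apart were joined and each joined region was counted once, the ratio was 2.20 (2.02 to 2.39). The start windows of chromosomes 14, 15, 21 and 22 held 0 peaks, the first peak of either list being at 18074134, 18737654, 9724024 and 15945787. Without these 4 windows the ratio was 2.76 (2.56 to 2.96).

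Single input peaks were sparser near the ends than on the rest. The input library had 7 peaks in the windows, or 0.0438 per Mb, and 220 on the rest, or 0.108 per Mb, a ratio of 0.404 (0.161 to 0.847). Many input peaks lay in tight groups, and regions joined in the same way numbered 7 and 79, a ratio of 1.13 (0.438 to 2.43). Of the 7 input peaks in the windows, 5 lay in the outermost 1 Mb, or 0.156 per Mb (0.0507 to 0.365). Among these 5 were the last peaks of chromosomes 10 and 14, which lie there by construction. The rest had 0.108 per Mb for single input peaks and 0.0389 for joined regions. The interval for joined input regions is wide and reaches the SOX9 ratio of 2.20, so at this number of input regions a difference between the libraries was not detectable on joined regions. None of the 884 members overlapped an input peak, compared with 27 peaks of the rest (0.580%) and 0.53% of the whole SOX9 list. Counted as 3 peaks of 884, the limit that a count of 0 allows is 0.339%, and the exact Clopper-Pearson upper bound is 0.416%. The input peak closest to a SOX9 peak in these windows lay 11.96 kb from it, on chromosome 9 (139342471 to 139342751).

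The excess was uneven between chromosomes. Windows were denser than the rest on 14 of 16 chromosomes, and the interval of the ratio lay above 1 on 11 of them. Chromosome 5 had the highest ratio, with 9.1 peaks per Mb near its ends and 1.54 on its rest (ratio 5.90, 4.60 to 7.52). It was followed by chromosome 21 (5.14, 3.77 to 7.02), chromosome 9 (4.74, 3.75 to 5.95), chromosome 20 (3.60, 2.79 to 4.63), chromosome 16 (3.40, 2.36 to 4.83) and chromosome 1 (3.33, 2.61 to 4.20). The intervals of chromosomes 5, 21 and 9 overlapped, so their order is not resolved. The ratio of chromosome 21 also counts its empty start window. In the end window alone it was 10.3, against 9.21 on chromosome 5, again with overlapping intervals. On chromosomes 3, 6 and 10 the interval included 1.

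The exceptions were chromosomes 15 and 22. Chromosome 22 held 11 peaks near its ends and 152 on its rest, a ratio of 0.286 (0.140 to 0.526), and chromosome 15 held 20 and 281, a ratio of 0.641 (0.386 to 1.01). Both have an empty start window. In the end window alone the ratio was 0.571 (0.279 to 1.05) on chromosome 22 and 1.28 (0.771 to 2.02) on chromosome 15. Neither differed beyond counting error from its rest as counted here. That rest includes the sequence between the start window and the first peak, at 15945787 on chromosome 22 and 18737654 on chromosome 15. This raises both ratios by an amount that was not computed. Whether the end of chromosome 22 is sparser than the part of its rest that holds peaks is therefore not resolved.

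**Figure D1:**
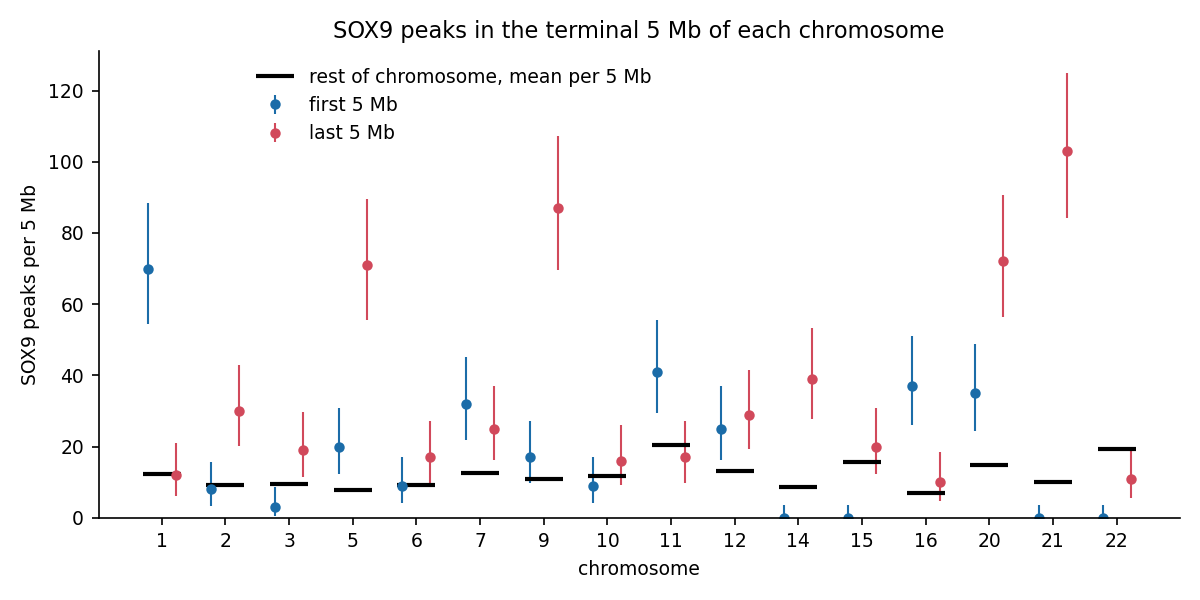
SOX9 peaks per 5 Mb on the y axis for each of the 16 chromosomes on the x axis. Blue points are the first and red points the last 5 Mb, bars are exact Poisson 95% intervals, and black dashes are the mean of the rest of the chromosome. The last 5 Mb of chromosomes 21, 9, 20 and 5 and the first 5 Mb of chromosome 1 stand at 70 to 103 peaks, and no other window exceeds 41.

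Of the 884 members, 403 (45.6%) lay in the 5 fullest windows. The last 5 Mb of chromosome 21 held 103 peaks (Poisson interval 84.1 to 125), which was 58.2% of the peaks of that chromosome. This was 10.3 times the density of its rest (7.55 to 14.05), which was counted from 5 Mb on although the first peak lay at 9724024. The last 5 Mb of chromosome 9 held 87 (69.7 to 107), 7.93 times its rest. Those of chromosomes 20 and 5 held 72 (56.3 to 90.7) and 71 (55.5 to 89.6), which were 4.84 and 9.21 times their rest, and the first 5 Mb of chromosome 1 held 70 (54.6 to 88.4), 5.68 times its rest. The intervals of all 5 windows overlap, which is not a test of a difference, and ratios between these windows were not computed. The 103 peaks of chromosome 21 lay above the intervals of chromosomes 20, 5 and 1 and inside that of chromosome 9. Among the other windows each count lay inside the intervals of the others, so their order is not resolved.

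The other windows were denser than the rest as well, but by less. Outside the 5 fullest windows, 481 members lay on 135 Mb, or 3.56 per Mb, a ratio of 1.56 (1.41 to 1.71) to the rest. These included 41 peaks at the start of chromosome 11, 39 at the end of chromosome 14, 37 at the start of chromosome 16 and 35 at the start of chromosome 20. At the low end, the start of chromosome 3 held 3 peaks, that of chromosome 2 held 8, and those of chromosomes 6 and 10 held 9 each. The 28 windows with any peak had a median of 22.5 peaks (quartiles 15 and 37.5). Consecutive 5 Mb stretches of the rest, 399 in number, had a median of 8 (quartiles 5 and 14). These medians are over unlike sets, since 27 stretches with 0 peaks were kept and the 4 empty windows were left out.

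High counts also occurred away from the ends. At least 30 peaks were found in 11 of 32 windows (34.4%) and in 23 of 399 stretches of the rest (5.76%), and the fullest stretch of the rest, on chromosome 11, held 150, more than any terminal window. A terminal window held more peaks than each of these stretches on its own chromosome in 9 cases. They were on chromosomes 1, 2, 5, 9, 14, 16, 20 and 21, chromosome 20 contributing both ends. The stretches were laid in fixed steps from 5 Mb on, and other placements were not tried. The part shorter than 5 Mb left before each end window was not counted as a stretch. Leaving the 60 to 70 Mb stretch of chromosome 11 out of the rest lowered the density of the rest from 2.29 to 2.16 per Mb.

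The ends of 1 chromosome could differ. On chromosome 1 the first 5 Mb held 70 peaks and the last 12 (6.20 to 20.96), close to the mean of its rest at 12.3 per 5 Mb. Chromosome 5 was reversed, with 20 peaks at its start (12.2 to 30.9) and 71 at its end, as was chromosome 9, with 17 (9.90 to 27.2) and 87. Chromosome 16 had 37 at its start (26.1 to 51.0) and 10 at its end (4.80 to 18.4). On chromosomes 7 and 12 the ends were within counting error of each other, with 32 and 25 peaks and with 25 and 29 peaks. Over the 12 chromosomes with a filled start window, end windows held 405 and start windows 306 peaks, or 6.75 and 5.1 per Mb (ratio 1.32, 1.14 to 1.54). The sides were not measured alike. End windows were counted from the last peak, whereas start windows include the sequence before the first peak, which on chromosome 3 lay at 2115382. This raises the ratio by an amount that was not computed.

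The density fell with distance from the end. Members lay a median of 1.70 Mb from it, and 491 of 884 (55.5%) were within 2 Mb. Over both sides of all 16 chromosomes, the outermost 1 Mb held 259 peaks, or 8.09 per Mb (7.14 to 9.14). The next held 232, or 7.25 (6.35 to 8.25), and the following bins 155, 135 and 103, the last of these at 3.22 per Mb (2.63 to 3.90). Between 5 and 6 Mb there were 78 peaks, or 2.44 per Mb (1.93 to 3.04), an interval that includes the mean of the rest. These pooled bins count the empty starts of chromosomes 14, 15, 21 and 22. From the last peak alone, the density between 5 and 6 Mb was 3.31 per Mb (2.48 to 4.33), above that mean.

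On both sides the density declined, counted over unlike sets of chromosomes. From the start of the 12 chromosomes it went from 7.25 peaks per Mb in the first bin (5.81 to 8.94) to 2.67 in the bin from 4 to 5 Mb (1.82 to 3.76). From the last peak of the 16 chromosomes it went from 10.8 (9.20 to 12.5) to 4.44 (3.47 to 5.60). Separate rises lay beyond the 5 Mb limit on both sides. From the start the density was 4.42 per Mb (3.31 to 5.78) between 6 and 7 Mb. From the last peak it was 2.25 (1.58 to 3.11) between 6 and 7 Mb and 5.06 (4.02 to 6.29) between 9 and 10 Mb. This rise was broad, with 3.75 to 5.06 per Mb in the bins from 8 to 13 Mb. The interval of each of those bins lay above the mean of the rest, 2.29. The end of a chromosome was taken as the last peak of either list, a SOX9 peak on 14 chromosomes and an input peak on chromosomes 10 and 14, which puts 14 members in the outermost bin by construction. Without these the ratio of 2.41 was 2.37.

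**Figure D2:**
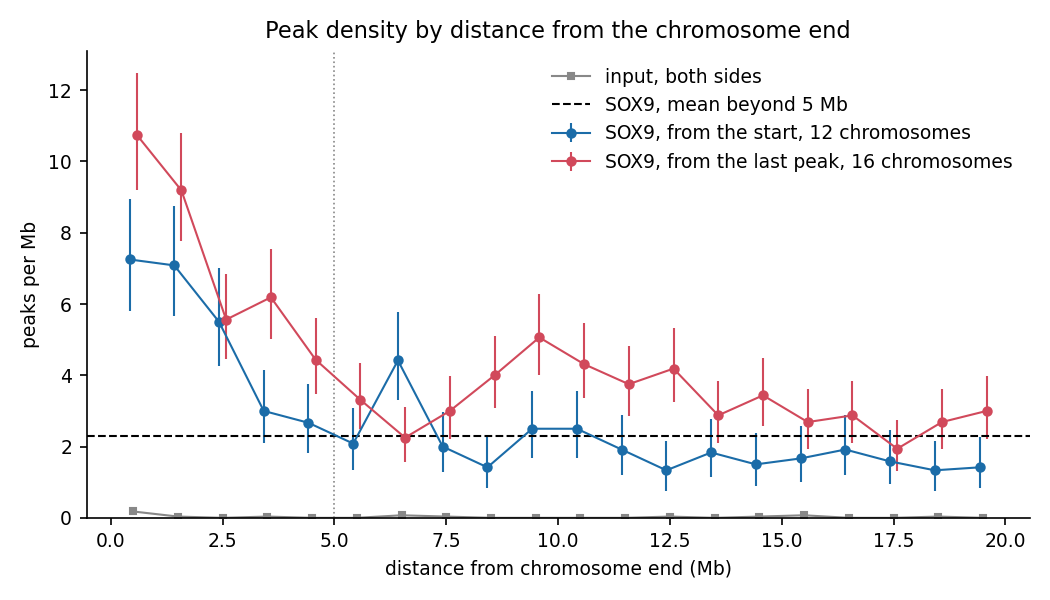
Peaks per Mb on the y axis in bins of 1 Mb by distance from the chromosome end on the x axis, for SOX9 from the start of 12 chromosomes (blue), for SOX9 from the last peak of 16 chromosomes (red) and for input on both sides (grey). Bars are exact Poisson 95% intervals, the dashed line is the SOX9 mean of 2.29 beyond 5 Mb and the dotted line marks 5 Mb. SOX9 density is highest in the outermost 2 bins on both sides. The input line stays near 0 on this axis, and its highest bin is the outermost, with 5 input peaks.

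Inside the fullest windows the peaks were not spread in the same way. In the last 5 Mb of chromosome 21 the outermost 1 Mb held 15 peaks and the next bins 33, 26, 15 and 14, so the highest count lay between 1 and 2 Mb from the last peak. On chromosome 9 the outermost 1 Mb held 33 peaks and the next 24, and 57 of 87 peaks lay within 2 Mb. Chromosome 20 was similar, with 49 of 72 peaks within 2 Mb and only 4 in each of the innermost 2 bins.

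On chromosome 5 the counts from the end inwards were 24, 15, 4, 17 and 11, with a gap between 2 and 3 Mb. The start window of chromosome 1 had its first peak at 845493 and held 14, 26, 19, 9 and 2 peaks from the start inwards. At the end of chromosome 14, which is known to carry the immunoglobulin heavy-chain genes, no SOX9 peak lay in the outermost 1 Mb and the nearest was 1168 kb from the end, which an input peak of 148 bp set (106232657 to 106232804).

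**Figure D3:**
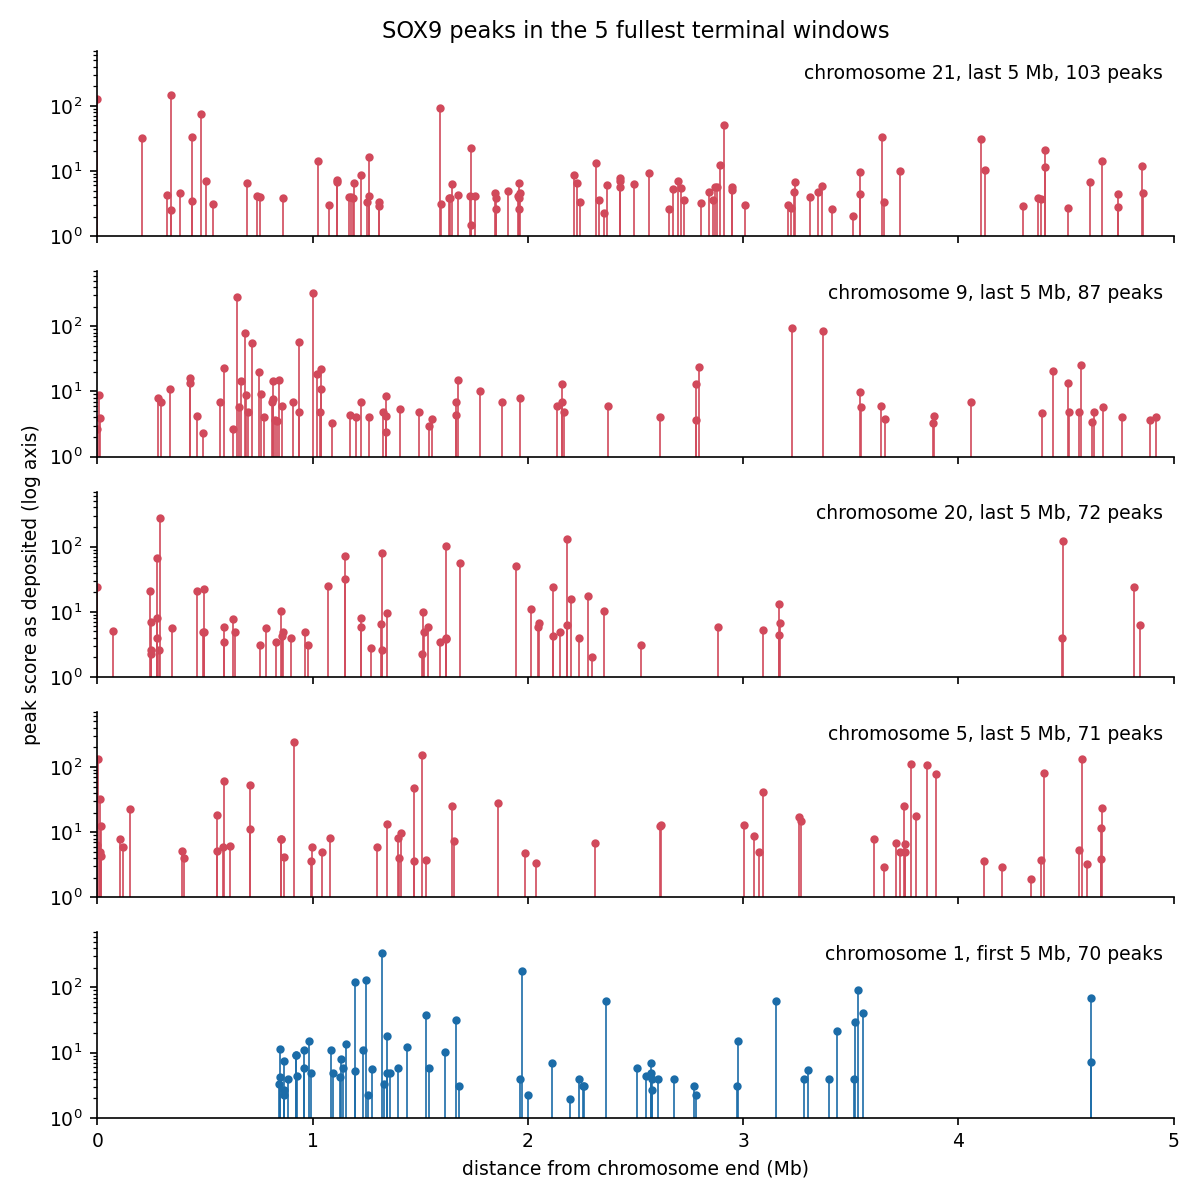
Each SOX9 peak in the 5 fullest terminal windows, with its distance from the chromosome end in Mb on the x axis and its deposited score on a log y axis. Red panels are last and blue first 5 Mb. Most of the 403 peaks score under 10 and a few in each window exceed 50, and the peaks of chromosomes 9 and 20 crowd towards the end.

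The score is the authors' own value per peak, whose scale the labels do not state, and it is compared only within the SOX9 list. Members had a median score of 6.90 (quartiles 4.19 and 16.2, interval of the median 6.46 to 7.53). The rest had a median of 8.27 (4.92 and 19.7, 7.94 to 8.76). Of the members, 400 (45.2%, exact Clopper-Pearson interval 41.9 to 48.6%) scored at or above the median of the whole list, against 52.7% of the rest (51.2 to 54.1%) and 51.7% of the list.

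The terminal excess was present at every level of score. Among peaks in the lowest quartile of scores the ratio of densities was 3.16 (2.75 to 3.61). It was 2.43 (2.09 to 2.82) and 1.96 (1.68 to 2.28) in the middle quartiles and 2.19 (1.88 to 2.55) in the highest. Of the 1000 highest-scoring peaks of the list, 102 were members, or 0.637 per Mb, and 606 lay on the rest, or 0.298 per Mb (ratio 2.14, 1.72 to 2.64). These 102 were 11.5% of the members (9.51 to 13.8%), compared with 13.02% of the rest (12.1 to 14.02%) and 13.3% of the list. The interval of the members includes the share of the list, so a difference in the share of strong peaks was not resolved.

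Scores were lower in the fullest windows than in the other windows. The median was 5.89 in the 5 fullest and 8.10 in the others, the latter inside the interval of the rest. The lowest median of a window with at least 10 peaks was 4.68, at the end of chromosome 21 (quartiles 3.61 and 7.16), where 5 of 103 peaks (4.85%, 1.59 to 10.97%) were among the 1000 highest. At the end of chromosome 5, 12 of 71 peaks (16.9%, 9.05 to 27.7%) were in that set and the median was 7.81. The corresponding counts were 9 of 72 (12.5%, 5.88 to 22.4%) at the end of chromosome 20 and 9 of 70 (12.9%, 6.05 to 23.01%) at the start of chromosome 1, with overlapping intervals. In a pair of smaller windows the interval of this share lay above the 13.3% of the list. At the start of chromosome 16, 10 of 37 peaks (27.0%, 13.8 to 44.1%) and at the end of chromosome 11, 7 of 17 (41.2%, 18.4 to 67.1%) were among the 1000 highest. These windows were singled out after their values were seen.

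Scores were also compared with full stretches inside the chromosomes, which were on average less dense than the full windows. The 617 peaks in windows with at least 30 peaks had a median of 6.51 (5.89 to 6.90), and the 1050 peaks in the 23 such stretches of the rest had 6.86 (6.21 to 7.44). Without the 60 to 70 Mb stretch of chromosome 11 the latter was 7.53 (6.90 to 7.94), an interval whose lower bound equals the upper bound at the ends. In stretches with 1 to 29 peaks the medians were 8.66 (7.72 to 10.4) at the ends and 8.95 (8.53 to 9.02) in the rest. Across the 24 windows with at least 10 peaks, the number of peaks and their median score had a Spearman's rho of -0.56, given as a description of windows of 1 library. Within the members, score and distance from the end were nearly unrelated (rho = 0.068 over 884 peaks).

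**Figure D4:**
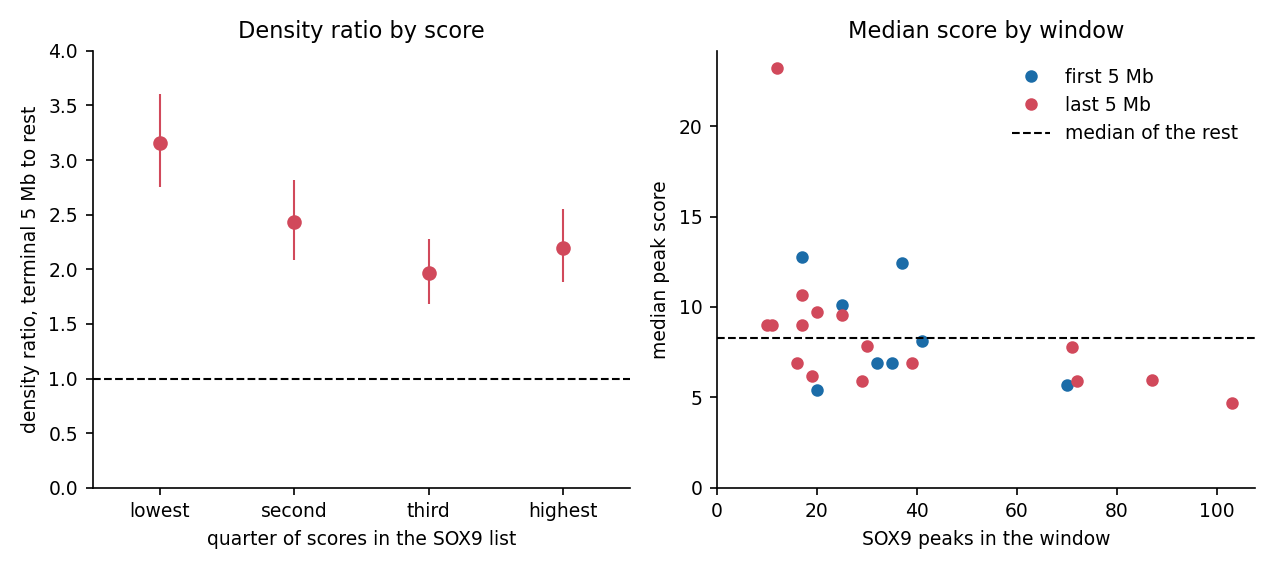
Left, ratio of SOX9 peak density in the terminal 5 Mb to that of the rest on the y axis for each quartile of scores on the x axis, with exact 95% intervals and a dashed line at 1. Right, median score on the y axis against the number of peaks on the x axis for the 24 windows with at least 10 peaks, with the median of the rest, 8.27, as a dashed line. All 4 ratios lie above 1 and the highest, 3.16, belongs to the lowest scores, and the windows with 70 or more peaks lie below the line.

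Members were slightly narrower at the median than the rest. The median width of members was 390 bp (interval of the median 373 to 413), compared with 418 bp on the rest (409 to 426). These intervals overlap, but the median of the rest lies above the interval of the members. The shortest width in the list, 243 bp, was shared by 82 members (9.28%, 7.45 to 11.4%) and by 7.52% of the rest (6.78 to 8.31%), against 7.91% of the list. Peaks of at least 1000 bp made up 11.1% of the members (9.09 to 13.3%) and 10.9% of the rest, with 10.7% in the list. Both pairs of intervals overlapped. Width and score were related within the members (Spearman's rho = 0.69 over 884 peaks) about as on the rest (rho = 0.67 over 4656).

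The strongest members were spread over 9 chromosomes. The highest score of the whole list, 602, belonged to a member of 1260 bp at the end of chromosome 15, at chr15:96304430-96305689, in a window of only 20 peaks whose median score was 9.70. The next were a 662 bp peak at the start of chromosome 11, at chr11:550623-551284, with a score of 362, and a 557 bp peak at the start of chromosome 1, at chr1:1324389-1324945, with 342. These ranked 8 and 10 in the list. The end of chromosome 9 contributed a peak scoring 329 at chr9:138900093-138900892 and a peak of 1316 bp scoring 285 at chr9:139254553-139255868, the former 1002 kb and the latter 648 kb from the end.

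The remaining members of the 10 strongest came from windows of very different fullness. At the start of chromosome 16 a peak of 498 bp scored 286 at chr16:2993847-2994344. The ends of chromosomes 20 and 5 held peaks scoring 271 at chr20:62139553-62141118 and 241 at chr5:179651455-179652129. The start of chromosome 10, with 9 peaks in all, held one scoring 227 at chr10:4858057-4858597, and the start of chromosome 7 one scoring 211 at chr7:882575-883304. None of the 10 overlapped an input peak. Among the 9 on chromosomes with an input peak, the nearest input peak was 86.6 kb away on chromosome 9 and at least 442 kb away for the others, and chromosome 15 had none.

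The widest members were not the strongest. They measured 3823 bp on chromosome 6 (165994032 to 165997854, score 79.5), 2659 bp on chromosome 20 (61278155 to 61280813, score 72.7) and 2589 bp on chromosome 11 (269340 to 271928, score 47.5). At the 5 Mb limit, the innermost member counted from a start was a 1342 bp peak on chromosome 3 with a score of 56.5, at 4.996 Mb, and the first peak beyond it was a 352 bp peak on chromosome 6 with a score of 5.89, at 5.03 Mb. Counted from an end, the innermost member was a 329 bp peak on chromosome 9 with a score of 3.99, at 4.92 Mb, and the first peak beyond was a 932 bp peak on chromosome 5 with a score of 22.4, at 5.01 Mb.

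Members lay closer to their neighbours than peaks of the rest. The median gap between neighbours was 49.8 kb in the windows and 145 kb on the rest, and 129 of 856 gaps (15.1%) and 575 of 4640 (12.4%) were under 1 kb. Clusters were runs of at least 3 peaks in which no gap exceeded 12.5 kb. They held 178 members (20.1%, 17.5 to 22.9%) and 12.3% of the rest (11.3 to 13.2%), against 13.7% of the list. When clusters were formed again from only the peaks at or above the median score, they held 2.25% of such members and 2.45% of such peaks on the rest. The share of these peaks in the clusters of the full list is not given here. Chromosomes 5, 9, 20 and 21 were also left out together after the data had been seen. Clusters of the full list then held 15.2% of members (12.1 to 18.8%) and 12.7% of the rest, a value inside the interval. A denser stretch holds more such runs by spacing alone, and this was not separated here. In windows with at least 30 peaks 23.5% of peaks were in clusters (20.2 to 27.0%), and in stretches of the rest with at least 30 peaks 23.8% (21.3 to 26.5%), or 13.9% (11.5 to 16.5%) without the 60 to 70 Mb stretch of chromosome 11. These sets were not equally full, at 11.2, 9.13 and 7.34 peaks per Mb in that order.

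There were 53 clusters wholly inside the windows, of which 42 had exactly 3 peaks, and they fell in 15 windows. The end of chromosome 9 had 9 with 30 peaks, the end of chromosome 20 had 8 with 27, the end of chromosome 21 had 7 with 24, the start of chromosome 1 had 6 with 20 and the end of chromosome 5 had 5 with 18. The largest held 6 peaks each. One spanned 17.1 kb up to the last peak of chromosome 5 (180548758 to 180565848), with scores from 4.30 to 133. Another spanned 32.6 kb of chromosome 9 (139059634 to 139092188), with scores up to 15.0, and another 6.36 kb of chromosome 7 (522975 to 529336), with scores up to 10.1. None of the peaks in these 3 clusters overlapped an input peak.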

How the data were processed

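The peak lists were those deposited by the authors, 1 for the SOX9 ChIP library and 1 for input, without header lines, with chromosome, start, end, name and score. The submitters' processing notes name build hg18 and CASAVA 1.8.2. No aligner, peak caller or calling threshold is named there, nor whether input served as the control. The score deposited by the authors was used only within 1 list.

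Starts were converted to 1-based positions. A member is a peak whose centre lay below 5 Mb or within 5 Mb of the largest peak end of either list on its chromosome. Overlap was at least 1 bp. Densities have exact Poisson, ratios conditional exact binomial, shares Clopper-Pearson and medians order-statistic 95% intervals, all covering counting error only. PCR-amplified reads are not independent molecules. No p-value was computed. The counting was tested on simulated data. Peaks named by position are the 10 highest-scoring and 3 widest members, the 3 largest clusters, any member overlapping input and those nearest the 5 Mb limit. The windows named are the 5 fullest and the 3 emptiest with any peak, ties included. Other windows, the 1 Mb profiles inside windows, the score quartiles and the comparison of stretches by fullness were added after values were seen. The members and all of these rules were chosen with earlier results of these data known. Genes and motifs were not run, since no hg18 reference was used here. Python 3.11.15 was used with scipy 1.17.1, numpy 2.4.6, matplotlib 3.10.9 and pandas 2.3.3.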

Additional observations from a re-analysis of the deposited data

How the results depend on the processing

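No paired analysis was possible because each group has 1 library. Pooled windows were denser than the rest under every alternative run, on 12 to 15 of 16 chromosomes, and on 10 of the 12 left without chromosomes 5, 9, 20 and 21. The ratio of densities, 2.41, was 3.23 with windows of 2 Mb, 1.82 with windows of 10 Mb, 2.80 with length counted from the first peak, 2.76 without the acrocentric start windows, 2.07 for peaks at or above the median score, 2.14 for the 1000 highest-scoring peaks and 2.20 for joined peaks. It was 2.24 without chromosome 5 and, added after the data had been seen, 1.69 without chromosomes 5, 9, 20 and 21. The median score of members, 6.90, was 7.80 after merging within 500 bp (rest 9.02), 7.72 with windows of 10 Mb (rest 8.04) and 7.94 without these 4 chromosomes (rest 8.10). The median width was 423 bp after merging (rest 460 bp). The share of members in clusters, 20.1%, was 31.0% with gaps up to 25 kb and 11.2% with gaps up to 5 kb, 9.16% after merging, 17.03% with windows of 10 Mb, 27.3% with windows of 2 Mb and 15.2% without the 4 chromosomes, where the 12.7% of the rest lay inside the members' interval of 12.1 to 18.8%. With clusters formed again from only the peaks scoring no less than the list median, it was 2.25%, where the rest had 2.45%. This was the only alternative run in which the share of members was below that of the rest. Among 152 values computed again, 132 fell inside the 95% interval given for the original or, for the count of chromosomes, were within 1.5 times it. The causes of these shifts were not tested, and with read depth unknown no limit on detection can be set.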
